A study of Mus musculus with 14 samples.

Results

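The genes of oxidative phosphorylation were taken from the gene symbols of the deposited tables. They were the nuclear genes whose symbols begin with Nduf, Uqcr, Cox4 to Cox8 or Atp5, and the succinate dehydrogenase genes Sdha, Sdhb, Sdhc and Sdhd. The mitochondrially encoded genes, whose symbols begin with mt-, were added, and symbols that hold -ps were left out. The rule found 107 of the 19959 genes listed, of which 94 are nuclear and 13 are mt- genes, and it used no measured value. By symbol, 37 of the nuclear genes belong to complex I, 8 are complex I assembly factors and 4 belong to complex II. A further 8 belong to complex III, 20 to complex IV with Ndufa4 and Ndufa4l2 included, and 17 to ATP synthase. Ndufb4c, counted with complex I, is annotated as a processed pseudogene and was not tested in any experiment. All 13 mt- genes encode proteins.

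The libraries came from mouse CD8+ T cells that had infiltrated E.G7 tumors, an ovalbumin-expressing mouse lymphoma line implanted subcutaneously. In the first experiment, Bcl6-RFP reporter mice carried the tumors for 21 days, and their tumor-infiltrating CD8+ T cells (TILs) were sorted into Bcl6+, TIM-3+ and DN cells, an abbreviation that the labels do not spell out. In the others, OT-I cells, CD8+ T cells that carry a transgenic receptor for an ovalbumin peptide, were made to overexpress Prdm1 or Bcl6, and were sorted about 8 days after transfer together with the co-transferred control cells, Prdm1neg or Bcl6neg in the labels. Each of the 7 groups had 2 libraries, 14 in all, and the vector of the OT-I controls is not named in the labels.

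Complex I (NADH dehydrogenase) and complex II (succinate dehydrogenase) feed electrons into the inner mitochondrial membrane, complex III passes them to cytochrome c, complex IV reduces oxygen with them, and ATP synthase uses the resulting proton gradient to make ATP. Every complex except complex II is built from subunits of both genomes, so nuclear and mt- transcripts are usually read apart. In tumor-infiltrating CD8+ T cells, respiratory capacity is often discussed in connection with persistence and exhaustion.

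Read depth ranged from 18309162 to 22322079 counts per library. Bcl6 itself followed the labels: its scaled level, in counts for every 1000000 (CPM), was 426 and 405 for Bcl6+ TILs, 90.2 and 94.2 for DN TILs, 14.8 and 18.1 for TIM-3+ TILs, 4.08 and 3.81 for Bcl6neg controls and 93.4 and 67.1 for Bcl6-overexpressing cells. Prdm1 was at 109 and 89.4 CPM in its controls and 155 and 193 CPM in the Prdm1-overexpressing cells. Of 8 CD8 T-cell markers, 7 were listed, and their summed level was between 4978 and 9634 CPM in every library. All CPM values below are scaled by the TMM method within an experiment, and a gene is called higher or lower where edgeR's quasi-likelihood test, adjusted over all genes tested by Benjamini-Hochberg, gave 0.05 or less. Nothing in the labels says that the libraries of a group came from separate animals, so the p-values measure only the spread between these libraries.

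Summed over genes, the mt- transcripts were most abundant in the DN TILs. They took 1.41% and 1.38% of all counts for Bcl6+ TILs, 1.58% and 1.56% for DN TILs, and 1.06% and 1.07% for TIM-3+ TILs, so the 3 populations did not overlap. The nuclear genes took 1.097% and 1.103% of counts for Bcl6+ TILs, 1.25% and 1.21% for DN TILs, and 1.07% and 1.02% for TIM-3+ TILs, again highest in the DN cells. The 95% Wilson intervals of these shares extend at most 0.0055 percentage points to each side and cover counting error only. An exact two-sided permutation test of 2 libraries against 2 cannot give a p below 0.333, so the shares are given without a test. Shares of all counts are not TMM scaled. With that scaling, the nuclear genes summed to 10490 and 10530 CPM in Bcl6+, 12110 and 11680 in DN and 11560 and 11130 in TIM-3+ TILs. DN cells were highest either way, while the order of Bcl6+ and TIM-3+ cells depended on the scaling. In bulk RNA, fewer cells of a type and less RNA per cell cannot be told apart.

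**Figure D1:**
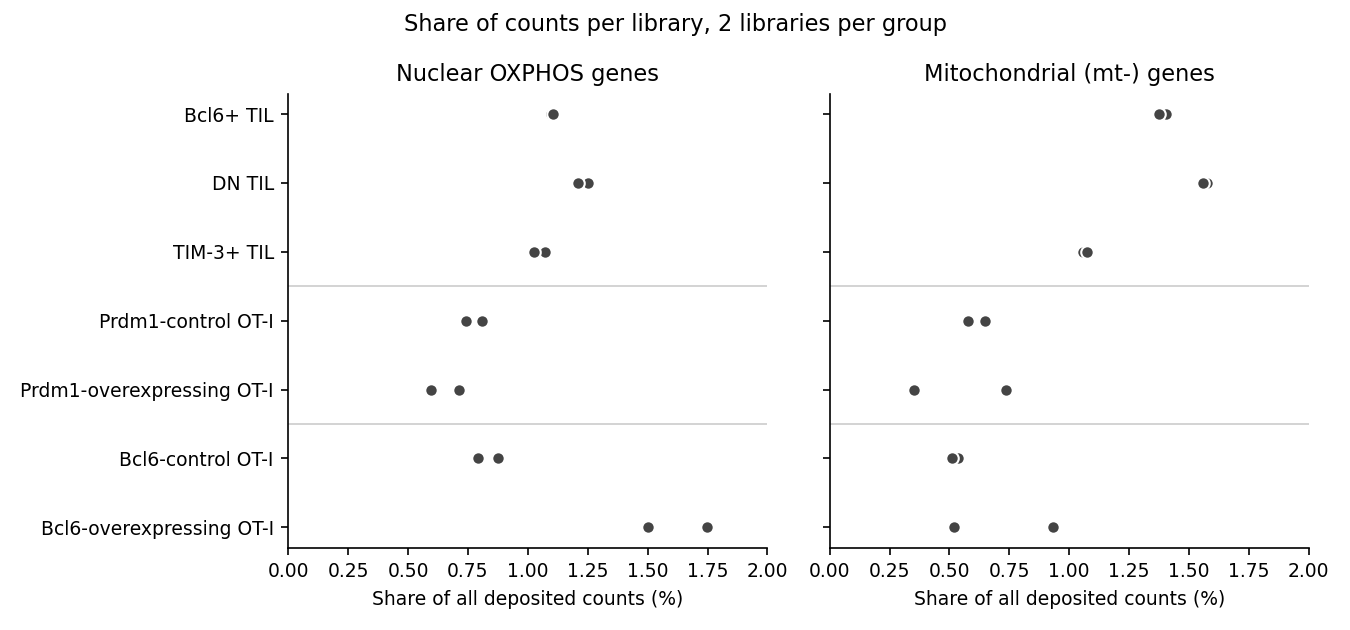
Share of all counts in each library, in percent, taken by nuclear oxidative phosphorylation genes and by mt- genes, for the 7 groups; each dot is 1 library. The DN TILs are highest of the TILs in both, and the Bcl6-overexpressing OT-I cells stand at 1.75% and 1.5% for nuclear genes against 0.87% and 0.79% in their controls.

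Gene by gene, DN cells were again most often the highest. Of the 85 nuclear genes tested in the TILs, DN cells had the highest mean level for 53, which is 62.4% of them against 24.5% of all genes tested. That share covers genes of every transcript length. Of the 85, 34 have transcripts of up to 700 bases, a class whose genes were higher in the DN libraries in general, as described below. Bcl6+ cells had the lowest mean for 46 (54.1%, against 35.6% of all genes) and TIM-3+ cells for 34 (40%, against 40.9% of all genes). Of the 13 mt- genes, DN cells were highest for 9 and TIM-3+ cells were lowest for 9. The 3 TIL comparisons share their libraries, so their values are given side by side and are not independent of each other. Not tested, at a mean below 1 FPKM (a fragment count divided by gene length and depth), were Cox7a1, the muscle isoform of a complex IV subunit, with 4 to 18 counts a library, and Ndufb4c. In the Prdm1 experiment 85 of 93 listed nuclear genes were tested, without Cox4i2, Cox6b2, Cox7a1, Cox7b2, Cox8b, Ndufa4l2, Ndufaf2 and Ndufb4c, and in the Bcl6 experiment 87 of 90, without Cox4i2, Cox7a1 and Ndufb4c.

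Between Bcl6+ and DN TILs, 19 of 85 nuclear genes were lower in the Bcl6+ cells and 0 were higher, where 7.69% of all genes tested were lower and 6.49% higher. No nuclear gene was higher at an unadjusted p of 0.05 either, by edgeR, DESeq2 or limma. The median nuclear gene was at a log2 fold change of -0.25, against 0.00 (0.00297) for all genes. Complex IV had more lower calls than any other complex, 9 of 14 genes tested, followed by 4 of 15 for ATP synthase, 4 of 36 for complex I and 2 of 8 for complex III.

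In complex IV the difference per gene was small. Cox4i1, the ubiquitous form of a regulatory subunit, was at 277 and 288 CPM in Bcl6+, 355 and 349 in DN and 331 and 313 in TIM-3+ TILs. Its Bcl6+ libraries were the lowest of the 6 and its DN libraries the highest (log2 fold change -0.32, SE 0.0698, adjusted p = 0.0064 for Bcl6+ against DN). Cox8a, a small membrane subunit, was at 210 and 202 CPM in Bcl6+, 266 and 286 in DN and 209 and 223 in TIM-3+ TILs, so that only the DN libraries stood apart. Its log2 fold change was -0.42 (SE 0.0796, adjusted p = 0.0024) for Bcl6+ against DN and -0.35 (adjusted p = 0.0043) for TIM-3+ against DN. Cox6c followed the same pattern with 77.0 and 76.8 CPM in Bcl6+, 112 and 105 in DN, and 77.1 and 72.6 in TIM-3+ cells. Its DN libraries were the highest again, and both differences were called (log2 fold change -0.50, adjusted p = 0.0097, and -0.53, adjusted p = 0.0033).

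Small subunits of ATP synthase and complex I gave further calls. Atp5k (subunit e of ATP synthase) had the largest difference among the nuclear genes called between Bcl6+ and DN cells, with 22.2 and 19.8 CPM against 36.9 and 32.3 (log2 fold change -0.72, SE 0.197, adjusted p = 0.025). Atp5mpl, a small proteolipid of the same complex, was at 45.7 and 44.0 CPM in Bcl6+, 69.7 and 64.3 in DN and 43.2 and 40.2 in TIM-3+ TILs. Ndufa13, a complex I subunit also known as GRIM-19 (chr8:69894180-69902558, minus strand, GRCm38), was instead low only in the Bcl6+ cells, at 92.1 and 89.1 CPM, with 134 and 118 CPM in DN and 124 and 122 CPM in TIM-3+ cells. Its Bcl6+ libraries were below all 4 others (log2 fold change -0.48, SE 0.106, adjusted p = 0.0073 against DN, and -0.45, adjusted p = 0.0041 against TIM-3+). Atp5c1, the gamma subunit that turns within the ATP synthase head, was at 350 and 321 CPM in Bcl6+, 423 and 435 in DN and 383 and 356 in TIM-3+ TILs (log2 fold change -0.35, SE 0.0717, adjusted p = 0.0038 for Bcl6+ against DN).

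Transcript length moved with this comparison. Over all genes whose principal transcripts are 700 bases or shorter, the median deviation from the mean of the 6 libraries, on the log2 scale, was -0.13 and -0.10 for the Bcl6+ libraries, 0.20 and 0.14 for the DN libraries and -0.03 and -0.05 for the TIM-3+ libraries, and many subunits of these complexes have transcripts in that class. With a smooth trend on principal transcript length removed, the lower calls were Atp5c1 and Ndufa13, 2 nuclear genes against 7.31% of all genes lower and 5.88% higher, and the nuclear median was -0.07. With a trend on the gene lengths implied by the deposited FPKM removed instead, 8 were lower, against 7.56% of all genes lower and 5.97% higher. The call also rested on the DN libraries: without DN replicate 1 there were 2 lower genes and without DN replicate 2 there were 3, against 11 and 9 without Bcl6+ replicate 1 or 2. No nuclear call passed with every library left out in turn and under every other setting.

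TIM-3+ TILs were lower than DN TILs for 17 of 85 nuclear genes and higher for 2, where 13.2% of all genes tested were lower and 14.9% higher. The nuclear median was a log2 fold change of -0.14, against -0.01 for all genes. Lower calls were spread over complex I (5 of 36), complex III (3 of 8), complex IV (5 of 14), ATP synthase (3 of 15) and 1 of 8 complex I assembly factors. With transcript length removed, 11 were lower and 5 higher, against 12.9% and 14.6% of all genes. Without DN replicate 1 or 2 the total fell to 10 calls each. With total counts in place of TMM, 39 were lower and Cox5a and Atp5b lost their higher call, against 22.3% of all genes lower and 8.91% higher, and the median of all genes moved to -0.18. The lower calls of Atp5mpl, Cox6c, Ndufa6, Uqcr11 and Uqcrq were kept with every library left out in turn and under every setting.

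Small subunits of complex III were among the largest changes. Uqcrq, a small subunit that binds cytochrome b (chr11:53427922-53430831, minus strand), was at 118 and 120 CPM in DN, 71.8 and 66.2 in TIM-3+ and 85.5 and 87.8 in Bcl6+ cells. The groups did not overlap, with DN highest and TIM-3+ lowest (log2 fold change -0.79, SE 0.113, adjusted p = 1.4e-04 for TIM-3+ against DN). Uqcr11, another small subunit (chr10:80402997-80406830, minus strand), was at 98.3 and 89.6 CPM in DN, 55.5 and 58.0 in TIM-3+ and 64.4 and 65.7 in Bcl6+ cells, in the same order (log2 fold change -0.73, SE 0.126, adjusted p = 6.5e-04). Uqcr10 was at 89.4 and 87.1 CPM in DN, 60.7 and 61.6 in TIM-3+ and 84.3 and 77.8 in Bcl6+ cells, so here only the TIM-3+ libraries were clearly low. Its difference lost its call once transcript length was removed (log2 fold change -0.53, adjusted p = 0.0049 before, and -0.21, adjusted p = 0.24 after).

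In complex I, Ndufa6, an accessory subunit, was at 80.9 and 86.9 CPM in DN, 55.4 and 54.3 in TIM-3+ and 63.0 and 68.0 in Bcl6+ TILs (log2 fold change -0.61, SE 0.129, adjusted p = 0.0027 for TIM-3+ against DN). The catalytic subunits Ndufs1 and Ndufv1, which carry the iron-sulfur clusters and the flavin, were both lowest in the TIM-3+ cells. Ndufs1 (chr1:63143596-63176833, minus strand) stood at 162 and 168 CPM in Bcl6+, 163 and 158 in DN and 132 and 132 in TIM-3+ cells. Its level was lower in TIM-3+ than in DN cells (log2 fold change -0.28, adjusted p = 0.032) and higher in Bcl6+ than in TIM-3+ cells (0.32, SE 0.0887, adjusted p = 0.012). Ndufv1 was at 169 and 159, 174 and 171, and 135 and 142 CPM in the same order. Ndufaf4, a complex I assembly factor, also fell in the TIM-3+ cells, with 38.5 and 37.5 CPM in Bcl6+, 33.0 and 39.4 in DN and 21.3 and 26.7 in TIM-3+ cells (log2 fold change -0.59, adjusted p = 0.035 against DN, and 0.66, adjusted p = 0.014 for Bcl6+ against TIM-3+).

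Cox5a and Atp5b were the 2 nuclear genes that rose in TIM-3+ relative to DN cells. Cox5a, a complex IV subunit on the matrix side (chr9:57521274-57532426, plus strand), was at 71.2 and 74.2 CPM in Bcl6+, 85.1 and 95.8 in DN and 112 and 124 in TIM-3+ TILs. No libraries of different populations overlapped (log2 fold change 0.38, SE 0.118, adjusted p = 0.026 for TIM-3+ against DN, and -0.70, SE 0.118, adjusted p = 3.3e-04 for Bcl6+ against TIM-3+). Atp5b, the catalytic beta subunit of ATP synthase (chr10:128083273-128090391, plus strand), was at 1343 and 1355 CPM in Bcl6+, 1452 and 1411 in DN and 1733 and 1627 in TIM-3+ TILs, the same order (log2 fold change 0.23, SE 0.0469, adjusted p = 0.0021, and -0.32, SE 0.0469, adjusted p = 1.1e-04). Its partner in the catalytic head, Atp5a1, was at 879 and 928, 884 and 879, and 910 and 873 CPM in Bcl6+, DN and TIM-3+ cells and had no call.

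**Figure D2:**
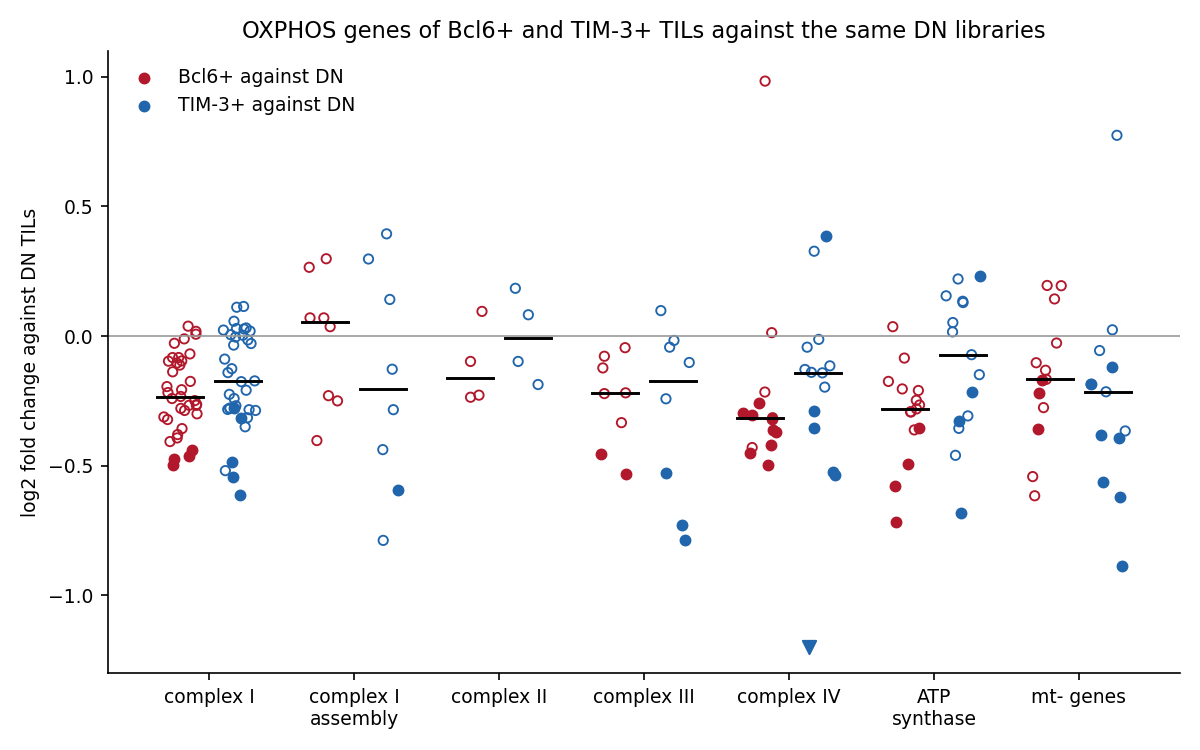
Log2 fold change against DN TILs of each tested nuclear gene and mt- gene, by complex, for Bcl6+ (red) and TIM-3+ (blue) TILs; filled points have an adjusted p of 0.05 or less, black lines are medians, and a triangle marks Cox6a2 in TIM-3+ cells at -4.60, beyond the axis. In the Bcl6+ cells, 33 of 36 complex I and 14 of 15 ATP synthase points lie below 0, while Cox5a and Atp5b lie above 0 in the TIM-3+ cells.

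Set directly against each other, Bcl6+ TILs were higher than TIM-3+ TILs for 7 of 85 nuclear genes and lower for 15, where 19.1% of all genes tested were higher and 19.6% lower. Both counts were below the share over all genes, and the nuclear median was -0.07 against 0.01 for all genes. The calls differed by complex. ATP synthase had 5 lower genes of 15, complex II had 2 lower of 4 (Sdhb and Sdhc), complex III had 2 higher of 8 (Uqcr10 and Uqcrq), and complex I had 2 higher (Ndufs1 and Ndufv1) and 3 lower. This split depended on the scaling. With total counts in place of TMM, 20 nuclear genes were higher and 3 lower, against 29.7% and 13.2% of all genes, while the median of all genes moved to 0.19 and that of the nuclear genes to 0.12. The 22 calls became 11 without Bcl6+ replicate 1, 9 without TIM-3+ replicate 1 and 14 without TIM-3+ replicate 2.

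Cox5a, Atp5b and Atp5d were the nuclear genes that kept their call with each library left out and under every setting. Atp5d, the delta subunit of the ATP synthase stalk (chr10:80138632-80145818, plus strand), was at 220 and 235 CPM in Bcl6+, 269 and 255 in DN and 327 and 283 in TIM-3+ TILs (log2 fold change -0.42, SE 0.0852, adjusted p = 0.0013 for Bcl6+ against TIM-3+). Its TIM-3+ libraries were the highest and its Bcl6+ libraries the lowest. In complex II, the flavoprotein gene Sdha was at 636 and 637, 618 and 573, and 599 and 514 CPM in Bcl6+, DN and TIM-3+ cells and was not called. The iron-sulfur subunit gene Sdhb went the other way, with 188 and 172, 199 and 186, and 223 and 215 CPM (log2 fold change -0.28, SE 0.0857, adjusted p = 0.018 for Bcl6+ against TIM-3+). The core subunits of complex III, Uqcrc1 and Uqcrc2, had no call in any TIL comparison, with Uqcrc1 between 380 and 431 CPM in the 6 libraries and Uqcrc2 between 149 and 187 CPM.

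Cox6a2 was the exception in size. It encodes the heart and skeletal muscle isoform of complex IV subunit VIa, while Cox6a1 encodes the form of other tissues. Cox6a2 (chr7:128205435-128206387, minus strand) had 73 and 81 counts in Bcl6+, 103 and 105 in DN and 2 and 6 in TIM-3+ TILs, which is 3.46 and 3.75, 4.85 and 4.86, and 0.0977 and 0.292 CPM. The TIM-3+ libraries were far below all others (log2 fold change 4.17, SE 0.661, adjusted p = 1.9e-04 for Bcl6+ against TIM-3+, and -4.60, SE 0.661, adjusted p = 1.3e-04 for TIM-3+ against DN). Cox6a1 (chr5:115345642-115348981, minus strand) was at 246 and 248, 314 and 277, and 242 and 242 CPM in the same groups, with no such drop.

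Cox6a2 is a low transcript that overlaps the integrin gene Itgad on the opposite strand, where 70 of its 680 exon bases are shared, and the labels do not say whether counting used the strand. Itgad had 73 and 80 counts in Bcl6+, 10 and 6 in DN and 29 and 0 in TIM-3+ TILs. The DN libraries therefore had the most Cox6a2 and few Itgad counts. A filter at a mean of 5 FPKM removed Cox6a2 from the test. In the Bcl6 experiment, Cox6a2 had 0 counts in both control libraries and 39 and 45 in the Bcl6-overexpressing libraries, a mean of 1.93 CPM with an SD of 0.141 (n = 2). Against the limit that 3 counts over the control group allow, 0.0721 CPM, this was at least 26.8-fold higher. Itgad was at 78 and 136 counts in those controls and at 141 and 132 in the overexpressing cells. Cox6a2 was not among the genes listed in the Prdm1 tables. Of the other isoform pairs, Cox6b2, the testis form of subunit VIb, was at 0.974 to 3.93 CPM in the TILs, where its TIM-3+ libraries overlapped both other groups, and at 1.43 and 0.282 CPM in the Bcl6neg controls against 4.27 and 3.65 CPM in the Bcl6-overexpressing cells.

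**Figure D3:**
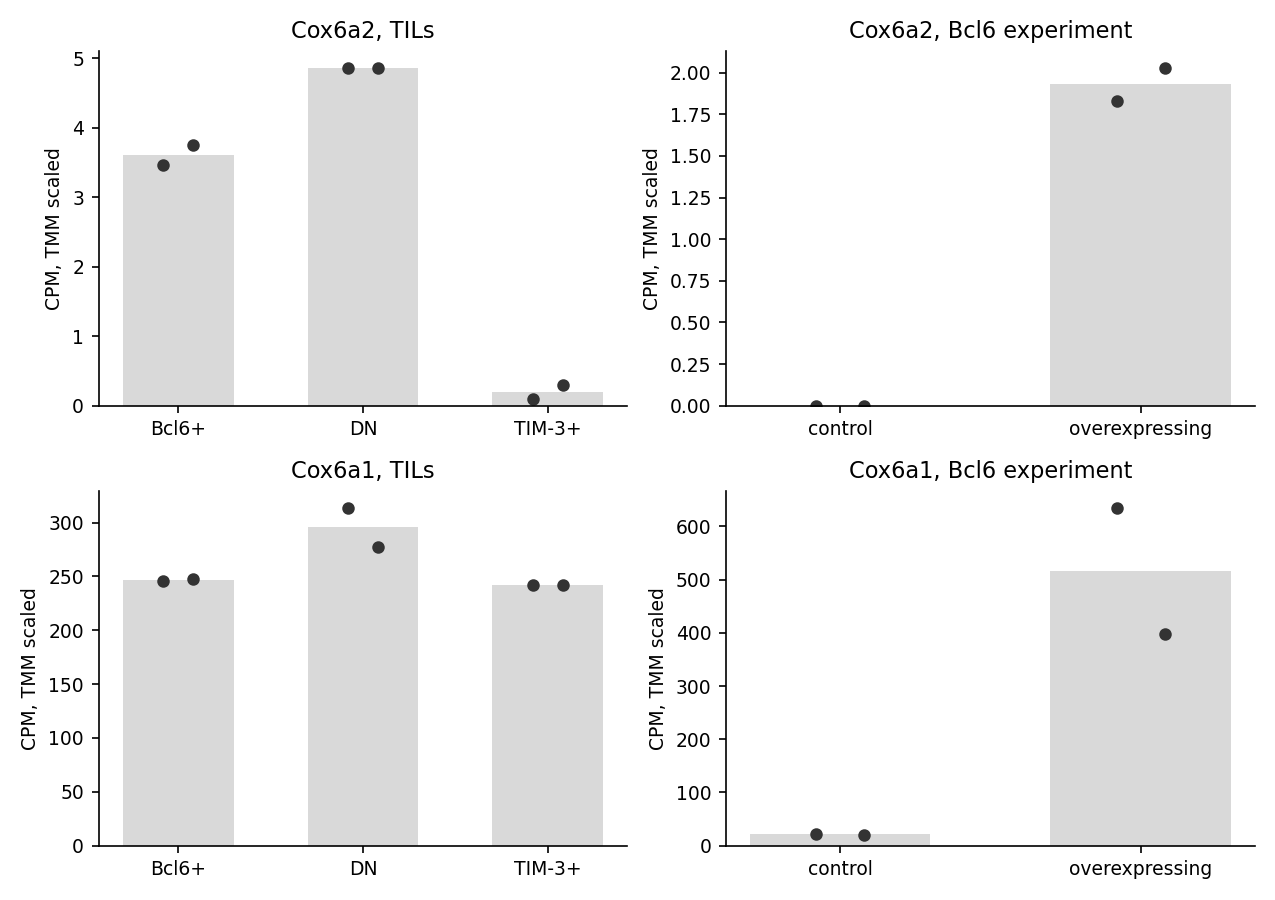
Level of Cox6a2 and Cox6a1 in CPM in the TILs and in the Bcl6 experiment, with bars for the mean and dots for the 2 libraries of a group. Cox6a2 is near 0 in TIM-3+ TILs and at 0 in the Bcl6neg controls, whereas Cox6a1 is within 242 to 314 CPM in all TILs and 19.5 to 22.6 CPM in the Bcl6neg controls.

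The mt- genes could not be read equally well, and sequences of a pair of them are shown for this reason. The nuclear genome of GRCm38 holds copies of mt- genes, and a read that matches both places equally may be dropped or divided, which the sources used here do not describe. For mt-Co2, which encodes complex IV subunit II (chrM:7013-7696, plus strand), 681 of 684 bases have a copy with no mismatch in Gm28661 (chr1:24614885-24615565). The first 60 bases are shown with that copy, to be compared with a stretch of mt-Co1 (bases 460 to 519 of the gene, which encodes the catalytic subunit I, chrM:5328-6872, plus strand), whose best copy Gm13340 (chr2:22588103-22589647) is 97.61% identical. Capitals mark the bases that differ between a gene and its copy, of which the first pair has 0 and the second 4. The mt-Co1 stretch was chosen as the 60 bases with the most differences. Over all 1545 aligned bases of mt-Co1, 37 differ, so most stretches are closer to the copy.
mt-Co2: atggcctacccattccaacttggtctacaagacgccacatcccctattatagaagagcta
Gm28661: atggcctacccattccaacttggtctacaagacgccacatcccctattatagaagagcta
mt-Co1: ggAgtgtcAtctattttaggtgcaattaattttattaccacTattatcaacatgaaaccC
Gm13340: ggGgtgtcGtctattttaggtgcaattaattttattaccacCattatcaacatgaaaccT
Per length, mt-Co2, mt-Co3, mt-Atp6, mt-Nd3 and mt-Nd4l, whose copies are 99.71% to 100% identical over 99% or more of the gene, were at 2.73 to 25.6 FPKM in the TILs. The copy of mt-Nd4, Gm28439, is 100% identical as well but covers 63.6% of the gene, and mt-Nd4 was at 564 to 819 FPKM. The search covered annotated pseudogenes only, and the best copy of mt-Atp8 found there is 81.4% identical. The end of mt-Atp8 (chrM:7766-7969) also overlaps mt-Atp6 (chrM:7927-8607), whose copy Gm10925 has no mismatch over 99.6% of mt-Atp6. Closer copies of mt-Atp8 outside the annotated pseudogenes were not looked for. Its level was 4.59 to 6.76 FPKM. The remaining 6 genes, with best copies 76.62% to 97.61% identical, were at 203 to 3736 FPKM. The best copy is here the match with the most matching bases. A shorter but closer copy of any of these genes, mt-Co1 among them, would not show, and such copies were not examined. The levels of the 5 genes with near-complete copies, of mt-Atp8 and, over the copied stretch, of mt-Nd4 are therefore uncertain, and the part of the copies in them was not tested.

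Of the mt- genes, 7 of 13 were lower in TIM-3+ than in DN TILs and 0 were higher, also 0 at an unadjusted p of 0.05 by edgeR and DESeq2, with 1 called by limma. The 7 lower calls became 3 and 4 without DN replicate 1 or 2. Of all genes, 13.2% were lower and 14.9% higher in that comparison. Against TIM-3+ cells, Bcl6+ cells were higher for 3 mt- genes (19.1% of all genes), and against DN cells they were lower for 3 (7.69% of all genes). mt-Cytb, cytochrome b of complex III (chrM:14145-15288, plus strand), was at 4547 and 4050 CPM in Bcl6+, 4443 and 4318 in DN and 2792 and 2901 in TIM-3+ TILs. Only the TIM-3+ libraries stood apart (log2 fold change -0.62, SE 0.0478, adjusted p = 4.2e-07 against DN, and 0.59, adjusted p = 2.8e-07 for Bcl6+ against TIM-3+). mt-Nd4, a proton-pumping subunit of complex I (chrM:10167-11544, plus strand) that has the partial nuclear copy named above, was at 1087 and 1026, 1191 and 1182, and 792 and 813 CPM in Bcl6+, DN and TIM-3+ cells, with DN highest and TIM-3+ lowest (log2 fold change -0.56, SE 0.0512, adjusted p = 2e-06 for TIM-3+ against DN).

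mt-Co1 had another order. It was at 4139 and 4352 CPM in Bcl6+, 5426 and 5447 in DN and 4137 and 4213 in TIM-3+ TILs, so the DN cells alone were high. The difference was -0.36 on the log2 scale (SE 0.0338, adjusted p = 7e-06) for Bcl6+ and -0.38 (adjusted p = 1.6e-06) for TIM-3+ against DN, and Bcl6+ and TIM-3+ cells differed by 0.02 (adjusted p = 0.61). mt-Nd6, the mt- gene read from the other strand, was at 154 and 150 CPM in Bcl6+, 132 and 142 in DN and 118 and 119 in TIM-3+ cells, highest in Bcl6+ (log2 fold change 0.36, SE 0.0949, adjusted p = 0.0087 against TIM-3+). mt-Nd1 was at 2249 and 2245, 2624 and 2604, and 2383 and 2431 CPM in Bcl6+, DN and TIM-3+ TILs. Its fall in Bcl6+ cells (-0.22, adjusted p = 0.0011) was not called with transcript length removed (-0.09, adjusted p = 0.13), while the values of mt-Co1 and mt-Cytb moved little. The calls for mt-Cytb, mt-Nd4 and mt-Nd6 between Bcl6+ and TIM-3+ cells, for mt-Co1 between Bcl6+ and DN cells, and for mt-Co1, mt-Cytb and mt-Nd4 between TIM-3+ and DN cells were kept with every library left out in turn and under every setting.

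**Figure D4:**
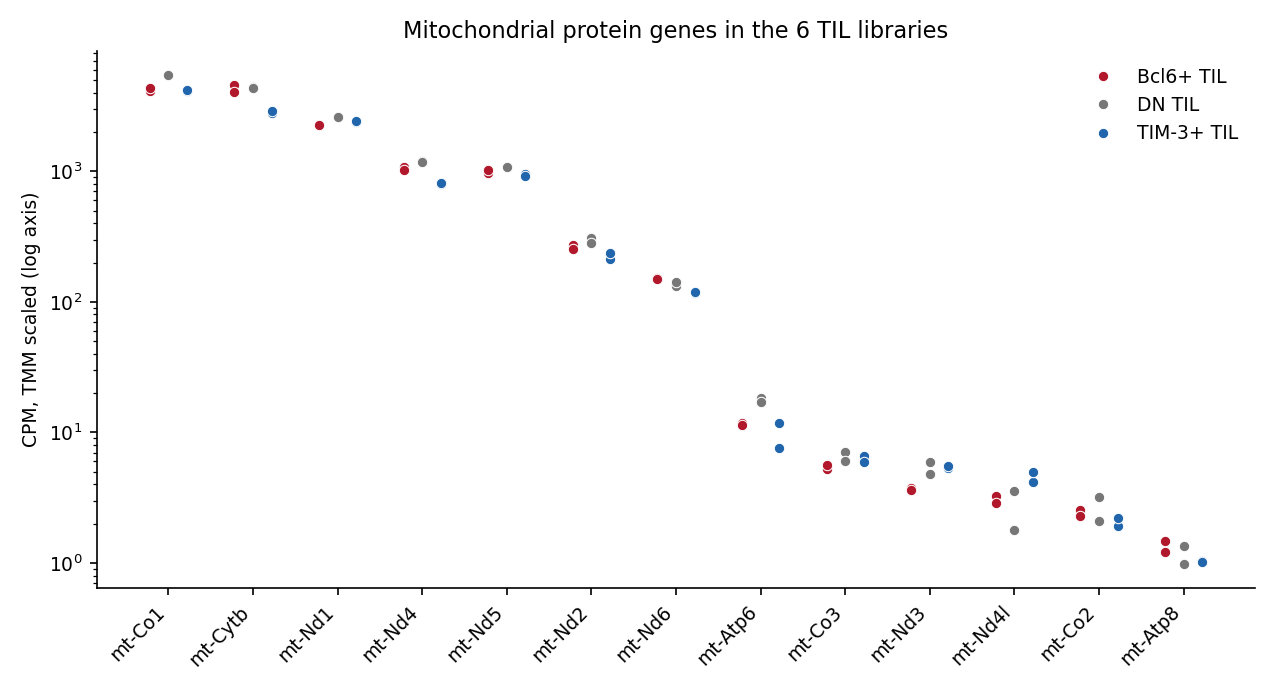
Level of the 13 mt- genes in the 6 TIL libraries, in CPM on a log axis, 1 dot per library. mt-Cytb and mt-Nd4 are lowest in TIM-3+ cells, mt-Co1 is highest in DN cells, and mt-Co2, mt-Co3, mt-Atp6, mt-Atp8, mt-Nd3 and mt-Nd4l lie far below the others.

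Markers of other cells also differed among the TILs. The summed level of the macrophage and monocyte markers was 230.3 to 265.7 CPM in Bcl6+, 141.5 to 141.6 in DN and 52.66 to 66.64 in TIM-3+ TILs, and all 10 markers were listed. Erythroid markers, of which 5 of 6 were listed, summed to 44.4 to 48.39 CPM in Bcl6+, 73.9 to 77.46 in DN and 20.91 to 27.57 in TIM-3+ TILs. Their part in the results was not tested.

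Prdm1 overexpression gave 0 calls among 85 nuclear and 13 mt- genes, where 1.16% of all genes tested were higher and 0.201% lower. At an unadjusted p of 0.05, edgeR had 2 nuclear and 2 mt- genes lower and 0 higher in either set, where 19.2% of all genes passed in 1 direction or the other. DESeq2 called 1 nuclear gene lower and limma called 0. With the replicate number as a block, 9 nuclear genes were lower, and 3 mt- genes were lower and 1 higher, against 6.61% of all genes lower and 10.1% higher. No label says that libraries of the same number came from the same animals, so whether the block applies cannot be told from the labels. The nuclear median was a log2 fold change of -0.14 and the mt- median -0.33, against 0.02 for all genes. With total counts in place of TMM, 1.72% of all genes were higher and 1.22% lower.

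The overexpressing libraries were unlike each other. The mt- share was 0.65% and 0.58% of counts in the controls and 0.74% and 0.35% in the overexpressing libraries, which lay on both sides of the controls. mt-Cytb was an example, with 2059 and 1639 CPM in the controls and 4260 and 1432 CPM in the overexpressing cells. Of the 4 genes at an unadjusted p of 0.05, mt-Nd4 was at 329 and 334 CPM in the controls and 259 and 175 CPM in the overexpressing cells (log2 fold change -0.61, SE 0.208, adjusted p = 0.18). mt-Co1 was at 2750 and 2764 CPM against 2289 and 1457 CPM (-0.56, SE 0.225, adjusted p = 0.24). For both genes the overexpressing libraries were below the controls, and neither passed the threshold.

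Among nuclear genes, both ATP synthase genes at an unadjusted p of 0.05 were lower in the overexpressing cells. Atp5b was at 1464 and 1296 CPM in the controls and 1095 and 1036 CPM in the Prdm1-overexpressing cells (log2 fold change -0.37, SE 0.154, adjusted p = 0.25). Atp5d was at 124 and 69.0 CPM against 65.5 and 29.6 CPM (-1.02, SE 0.409, adjusted p = 0.24), and it was called once transcript length was removed (-0.82, adjusted p = 0.046). Sdha was at 435 and 508 CPM in the controls and 527 and 609 CPM in the overexpressing cells, and Uqcrc1 at 885 and 1010 against 1160 and 991 CPM, with no call. The values turned on single libraries: the difference in mt- share was -0.0675 percentage points with all libraries and 0.124 without overexpressing replicate 2. The number of members called also changed with a library left out, and the share over all genes in those fits is not given here. For transcripts of 701 to 1000 bases, the median log2 deviation was 0.35 and -0.11 in the controls and 0.34 and -0.52 in the overexpressing libraries. Neutrophil markers summed to 1.854 to 3.97 CPM in the controls and 91.83 to 102.3 CPM in the overexpressing cells, and macrophage markers to 400.7 to 459.4 against 146.8 to 260 CPM, and their part in these values was not tested.

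Bcl6 overexpression was the comparison with the most calls. Of 87 nuclear genes, 69 were higher in the Bcl6-overexpressing OT-I cells and 4 lower, where 25.4% of all genes tested were higher and 23.4% lower. The median nuclear gene rose by 2.83 on the log2 scale, against 0.00 (0.00229) for all genes. All 14 complex IV genes tested were higher, with a median of 3.40, and so were 31 of 36 complex I subunits (2.91), 13 of 17 ATP synthase genes (2.61), 5 of 8 complex III genes (3.17), 4 of 8 assembly factors and 2 of 4 complex II genes. Leaving out each library in turn gave 67 to 76 nuclear calls.

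The largest changes were in small subunits with short transcripts. Cox6a1 was at 22.6 and 19.5 CPM in the Bcl6neg controls and 636 and 397 CPM in the Bcl6-overexpressing cells, a log2 fold change of 4.62. Cox6b1, a subunit on the intermembrane side of complex IV, was at 20.1 and 19.1 CPM against 424 and 301 CPM (4.21), and Cox4i1 at 91.8 and 72.6 CPM against 749 and 592 CPM (3.03, SE 0.194, adjusted p = 5.4e-11). Atp5e, the epsilon subunit of ATP synthase, was at 9.54 and 8.27 CPM against 201 and 125 CPM (4.19). In each of these, every overexpressing library was several times above every control. Among complex I genes, Ndufs6 was at 7.82 and 6.35 CPM against 143 and 107 CPM (4.14), and Ndufa2 at 15.1 and 12.1 CPM against 287 and 175 CPM (4.09).

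Genes of several large, catalytic or core subunits were not called or were lower. Atp5b was at 1745 and 1706 CPM in the controls and 1696 and 1581 CPM in the overexpressing cells (log2 fold change -0.08, adjusted p = 0.74), and Atp5a1 at 1030 and 1019 CPM against 1028 and 929 CPM (-0.07, adjusted p = 0.77). Ndufv1 was at 206 and 205 CPM against 246 and 177 CPM (0.04, adjusted p = 0.86). Sdha was at 495 and 529 CPM against 404 and 382 CPM (-0.38, adjusted p = 0.06). The 4 lower genes were Ndufs1, Ndufaf1, Uqcrc2 and Uqcrc1. Ndufs1 was at 163 and 162 CPM in the controls and 78.7 and 94.9 CPM in the overexpressing cells (-0.90, SE 0.178, adjusted p = 3e-04), and both overexpressing libraries were below both controls. Uqcrc1, a core subunit of complex III, was at 1078 and 946 CPM against 810 and 673 CPM (-0.45, adjusted p = 0.037), while Uqcrq in the same complex was at 22.7 and 20.9 CPM against 207 and 158 CPM (3.07).

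Over all genes, the change differed by transcript length. Of all genes with principal transcripts of up to 700 bases, 82.2% were higher in the overexpressing cells, with a median log2 fold change of 2.95, and in this class 34 of 34 nuclear oxidative phosphorylation genes were higher with a median of 3.61. Between 701 and 1000 bases, 80.3% of all genes were higher (median 1.80), and 17 of 17 of the nuclear oxidative phosphorylation genes (3.03). Between 1001 and 1500 bases the figures were 40.4% (0.41) and 10 of 16 (1.08), and between 1501 and 2000 bases 20.1% (-0.08) and 3 of 9 (-0.07). For transcripts of up to 700 bases the median log2 deviation was -1.40 and -1.59 in the control libraries and 1.55 and 1.41 in the overexpressing libraries.

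**Figure D5:**
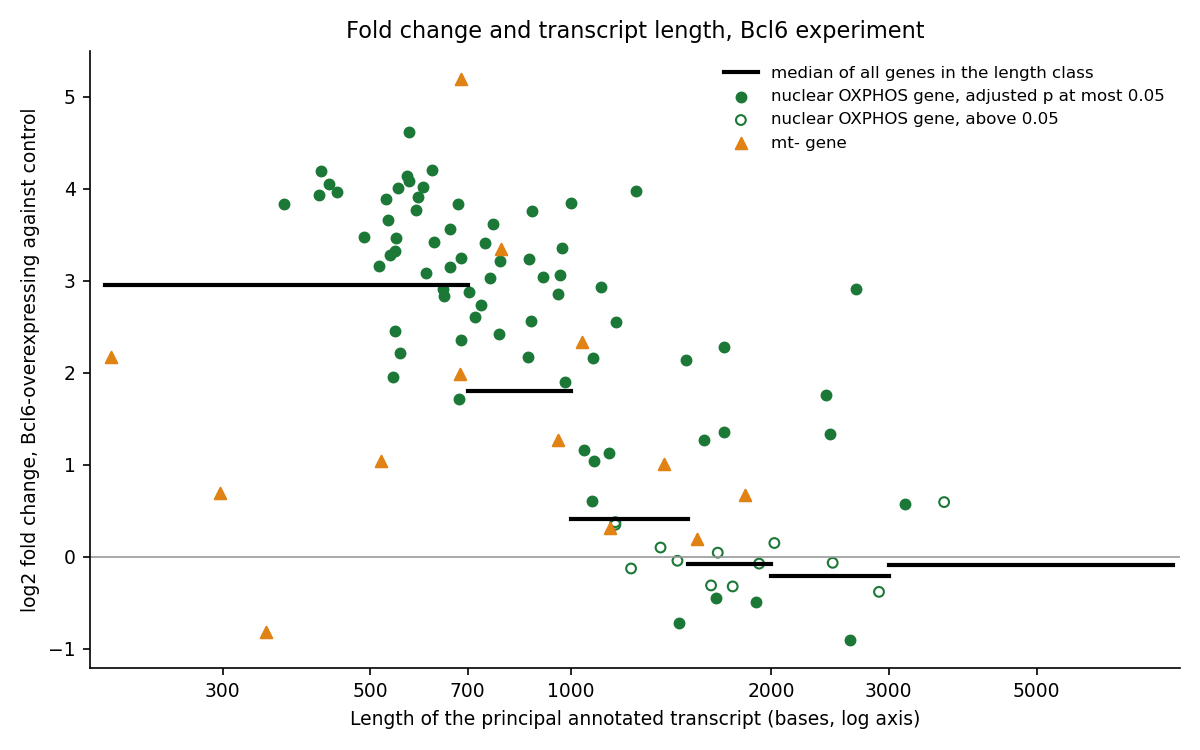
Log2 fold change in Bcl6-overexpressing against Bcl6neg control OT-I cells of each tested nuclear and mt- gene, against the length of its principal transcript in bases; black bars are the medians of all genes tested in each length class. The nuclear genes of up to 1000 bases lie above 0, as do the all-gene medians of 2.95 and 1.80, and genes of longer classes lie on both sides of 0; Cox6a2 (0 counts in the controls) and the genes without an annotated length, Atp5md and Atp5pb, are left out.

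With the trend on principal transcript length removed, 43 nuclear genes were higher and 7 lower, the nuclear median was 0.42, and 24.7% of all genes were higher and 23.4% lower. Atp5md has no annotated length, so this setting left its value at 2.577, and its call there is no check on length. It is counted among the 43, among the calls kept under every setting, and in later counts with transcript length removed. With the gene length trend removed instead, 62 nuclear genes were higher and 6 lower, against 25.6% and 24.4% of all genes. By complex, with principal transcript length removed, 23 of 36 complex I genes were higher and 2 lower (median 0.78). For complex IV these were 8 and 1 of 14 (0.76), for ATP synthase 6 and 1 of 17 (0.16), and for complex III 1 and 1 of 8 (0.05). With gene length removed, they were 28 and 2, 11 and 0, 13 and 0, and 5 and 2 in that order (medians 1.34, 2.11, 2.26 and 0.955). The rise of Cox5a went from 2.83 to 0.05 with principal transcript length removed, that of Atp5e from 4.19 to 0.22 and that of Cox6a1 from 4.62 to 1.45. With gene length removed, these rises were 2.664, 3.725 and 1.834. Cox7c, Ndufb8 and Atp5l turned from higher to lower calls with principal transcript length removed, at -1.32, -0.93 and -0.81. They did not with gene length removed (0.393, 1.749 and 2.56). Of the 73 nuclear calls, 38 were kept with each library left out and under every setting.

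Some genes rose far above others of the same annotated transcript length. Which transcripts these cells made, and whether they were as long as annotated, was not tested. Ndufa13 was at 17.0 and 17.5 CPM in the controls and 319 and 224 CPM in the overexpressing cells, a log2 fold change of 3.97 that stayed at 3.50 (adjusted p = 3e-18) with transcript length removed. Atp5g1, 1 of 3 genes for the c subunit that forms the ATP synthase ring (chr11:96068852-96075670, minus strand), was at 34.3 and 32.0 CPM against 277 and 223 CPM, 2.91 before and 3.10 after removal (adjusted p = 2.3e-17). Of the other c-subunit genes, Atp5g2 went from 3.77 to 0.71 (adjusted p = 0.0045) and Atp5g3 from 2.61 to 0.16 (adjusted p = 0.49). Ndufs4, an accessory subunit of complex I, was at 19.97 and 15.3 CPM against 85.9 and 86.0 CPM, with 2.28 before and 2.32 after. Cox7b was at 8.95 and 9.45 CPM against 139 and 125 CPM, with 3.85 before and 2.69 after (adjusted p = 3.4e-14). By the annotation, Ndufa13 overlaps Tssk6 and Yjefn3, Ndufs1 overlaps Eef1b2, Cox4i1 overlaps Emc8 and Gm20388, and Atp5d overlaps Cbarp, so some of their reads may belong to those genes, while Atp5g1, Ndufs4, Cox7b and Cox6a1 overlap no annotated gene.

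The mt- genes rose in part. In the Bcl6-overexpressing cells, 9 of 13 were called higher, where 25.4% of all genes were, and the median log2 fold change was 1.04. By edgeR and DESeq2, 0 were lower at an unadjusted p of 0.05, and by limma 1 was. The mt- share of counts was 0.54% and 0.51% in the controls and 0.52% and 0.93% in the overexpressing libraries, so that replicate 1 was level with the controls and the higher mean came from replicate 2. mt-Co1 was at 2440 and 2520 CPM in the controls and 1972 and 3679 CPM in the overexpressing cells (0.19, adjusted p = 0.5), and mt-Cytb at 1672 and 1246 against 1411 and 2215 CPM (0.31, adjusted p = 0.22). For both, the controls lay between the overexpressing libraries or overlapped them. mt-Nd4 was at 287 and 310 CPM against 513 and 692 CPM, a rise of 1.01 that was 0.78 with the principal transcript length removed and 0.06 (adjusted p = 0.82) with the gene length removed, so its call depended on the length used; reads from its copied stretch are uncertain here too.

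mt-Co2 changed most, from 18 and 22 counts to 881 and 655 counts, which is 0.885 and 1.03 CPM against 41.3 and 29.5 CPM (log2 fold change 5.20, SE 0.348, adjusted p = 1.1e-10, a 36.7-fold difference). It is 1 of the genes whose nuclear copies are identical, shown above by sequence, so the origin of its reads is uncertain. mt-Co3, complex IV subunit III, was at 5.02 and 4.61 CPM against 58.3 and 39.3 CPM (3.34), with the same reservation. Both were kept as higher with each library left out and under every setting, including the removal of transcript length (2.57 and 1.22). Over the mt- genes, 5 were then higher and 5 lower, with a median of -0.01, and with the gene length removed 2 were higher and 7 lower, with a median of -0.78.

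Control and overexpressing cells also differed in other markers. Neutrophil markers summed to 1.41 to 1.574 CPM in the Bcl6neg controls, where S100a8 was at 0, and to 81.96 to 92.31 CPM in the Bcl6-overexpressing cells. Macrophage and monocyte markers summed to 133.5 to 136.9 against 531.3 to 616.8 CPM, and their part in the results was not tested. The low levels of the short genes in the Bcl6neg controls were near those of the Prdm1 experiment: Cox6a1 was at 19.5 to 22.6 CPM in the Bcl6neg controls and at 11.8 to 28.6 CPM in all 4 Prdm1 libraries, against 397 to 636 CPM in the Bcl6-overexpressing cells and 242 to 314 CPM in the TILs. These experiments were scaled separately, so the levels are set side by side without a test.

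Promoter sequences were examined because nuclear oxidative phosphorylation genes are classically linked to NRF1 and to the ETS factor GABP. In RefSeq promoters (250 bases before to 50 after the start, GRCm38.p6), 76 of the 94 nuclear genes had an entry. The NRF1 motif is a palindrome spelled in capitals within the Cox6a1 promoter printed here. It was in 7 of these genes (9.21%) against 290 of all 27025 genes with an entry (1.07%). The ETS motif CCGGAAGT, searched on both strands, was in 5 (6.58%) against 1164 (4.31%), and 12 (15.8%) had at least 1 of the motifs against 1423 (5.27%). Cox6a1 and Uqcr11, whose levels are described above, are shown as examples, with the motif in capitals (chr5:115348909-115349208 and chr10:80406772-80407071, both minus strand).
Cox6a1: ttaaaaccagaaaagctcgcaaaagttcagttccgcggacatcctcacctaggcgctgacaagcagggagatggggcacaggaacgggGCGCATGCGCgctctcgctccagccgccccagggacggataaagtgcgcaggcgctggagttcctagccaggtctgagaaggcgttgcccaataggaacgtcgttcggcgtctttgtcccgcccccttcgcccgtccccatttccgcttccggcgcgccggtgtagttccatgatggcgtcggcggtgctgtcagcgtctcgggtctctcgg
Uqcr11: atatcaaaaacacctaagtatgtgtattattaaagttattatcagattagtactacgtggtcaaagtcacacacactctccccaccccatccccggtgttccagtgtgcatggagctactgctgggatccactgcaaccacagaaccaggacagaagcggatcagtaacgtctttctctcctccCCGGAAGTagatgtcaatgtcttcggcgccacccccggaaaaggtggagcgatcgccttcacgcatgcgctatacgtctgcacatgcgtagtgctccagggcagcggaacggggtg
The NRF1 motif was also in the promoters of Atp5g2, Atp5k, Ndufa11, Ndufaf4, Ndufaf5 and Uqcrc1, and the ETS motif in those of Atp5h, Cox8a, Ndufs3 and Uqcrh. With Bcl6 overexpression, 9 of these 12 genes were higher and Uqcrc1 was lower, and of the 61 tested genes with neither motif 50 were higher and 1 lower, where 25.4% of all genes were higher. With transcript length removed, the counts were 4 higher and 1 lower of 12, and 34 higher and 5 lower of 61. Among the 12 genes with a motif, Atp5k, Cox6a1, Cox8a and Uqcr11 had lower calls for Bcl6+ against DN TILs. The others, Uqcrc1 among them, had no call there, where 7.69% of all genes tested were lower. With transcript length removed, those lower calls were lost (edgeR adjusted p = 0.42, 0.92, 0.4 and 0.48 in that order). A match describes the letters of the window and not binding.

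Genes of the same pathway outside the symbol rule were read from further lists, with 19.1% of all genes higher and 19.6% lower in Bcl6+ than in TIM-3+ TILs. Of 16 carriers and further electron-transport genes tested, 1 was higher and 6 were lower in Bcl6+ than in TIM-3+ TILs. Gpd2, the mitochondrial glycerol-3-phosphate dehydrogenase that passes electrons to ubiquinone, was at 246 ± 3.16 CPM in Bcl6+ and 605 ± 9.2 CPM in TIM-3+ cells (mean ± SD, n = 2; log2 fold change -1.297, SE 0.0657, edgeR adjusted p = 2.9e-09). Ucp2, an inner-membrane carrier, was lower by the same test (-0.73), and so was the ADP/ATP carrier gene Slc25a5 (-0.29). Of 27 assembly factors, 5 were higher in Bcl6+ cells, with the copper chaperone gene Cox17 at 1.12 (adjusted p = 1.8e-04) and Lyrm7, which acts in complex III assembly, at 1.03. In the tricarboxylic acid cycle, 3 of 14 genes were higher and 3 lower, with Cs (citrate synthase) at -0.52, Idh3a at -0.60 and Suclg1 at 0.58.

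With Bcl6 overexpression, 5 of 14 tricarboxylic acid cycle genes were lower, whereas 56 of 77 mitochondrial ribosomal protein genes were higher and 1 lower, with a median log2 fold change of 1.4, where 25.4% of all genes were higher and 23.4% lower. With transcript length removed, 34 of the ribosomal protein genes were higher and 8 lower (24.7% and 23.4% of all genes), and their median was 0.31.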

How the data were processed

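Total RNA of sorted cells was sequenced, per the labels' protocols, in 14 libraries of 7 groups. The authors deposited, per gene and library, whole-number read counts and FPKM values, per the file headers; the TIL reads were processed with Bowtie2, Subread and featureCounts and the OT-I reads with HISAT2, featureCounts and RSEM on mm10, per the submitters' processing notes, whose versions are not stated there. FPKM divides the deposited counts by gene length and library size. It served for the filter (an average of 1 FPKM or more across an experiment's libraries), for comparing genes, and for limma.

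Counts were tested in each experiment with edgeR 4.0.16 in R 4.3.3 (TMM scaling, quasi-likelihood test, 1 model over all groups of an experiment, Benjamini-Hochberg over all genes tested, 0.05), on 9748 genes in the TILs, 9947 for Prdm1 and 9669 for Bcl6. The biological coefficients of variation were 0.149, 0.227 and 0.164. Library depth of 18309162 to 22322079 counts makes counting error small for all but the lowest genes, and the 2 libraries per group limit the precision. The procedure was tested on simulated data with 200 genes changed. Alternatives were DESeq2 1.42.0, total-count scaling, TMM without mt- genes, other filters, limma 3.58.1 on log2(FPKM + 1) and log2(FPKM + 0.1), a replicate block, each library left out, and the removal of a smooth trend (lowess, span 0.1) of each library's log counts on gene length. A trend on the length of principal transcripts in GENCODE M21 (GRCm38) was added after seeing the data. Copies of mt- genes were found with blastn 2.17.0 among the annotated pseudogene transcripts of GENCODE M21. For each gene only the match with the most matching bases was kept, and the rest of the nuclear genome was not searched.

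The members and the further lists were chosen with earlier results of these data known. Named genes were the mt- genes, core subunits of each complex, members with alternative isoforms, the 6 called nuclear genes that moved furthest up and down in a comparison, and up to 3 genes of each further list by smallest p; genes that kept their call under every setting, and genes whose value changed most or least with length, were named after their values were seen. Replicate numbers were not taken as pairs, since no label ties a number to an animal or a day. The deviations of same-numbered libraries correlated at 0.015 to 0.036 in the TILs, 0.28 for Prdm1 and -0.055 for Bcl6. Because the OT-I control cells were co-transferred, same-numbered libraries there may share recipients, and these correlations do not decide it.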

Additional observations from a re-analysis of the deposited data

How the results depend on the processing

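The single genes followed across settings were some, not all, of the genes called. Under the other settings, 772 of their values kept direction and call, 92 lost the call and 12 reversed. The turns of Cox7c, Ndufb8 and Atp5l to lower calls, given above, are not among these 12. With a library left out, 237 values were kept and 113 lost the call, and the cause was not tested. Between Bcl6+ and TIM-3+ TILs, the nuclear calls (22) became 37 and 36 with limma on log2(FPKM + 1) and log2(FPKM + 0.1) and 9 to 15 with a library left out; the mt- calls (3) became 5 with DESeq2, 6 with total counts, 5 with either limma setting, and 3 to 4 with a library left out. Between Bcl6+ and DN TILs, the nuclear calls (19) became 8 with gene length removed, 2 with principal transcript length removed, a setting chosen after seeing the data, 29 with limma on log2(FPKM + 1) and 2 to 11 with a library left out; the mt- calls (3) became 5 with either limma setting and 2 to 3 with a library left out; Cox6a1 turned to 0.017 with transcript length removed. Between TIM-3+ and DN TILs, the nuclear calls (19) became 39 with total counts and 10 to 15 with a library left out, and the mt- calls (7) became 4 with gene length removed, 4 with no filter and 3 to 5 with a library left out. For Prdm1, the nuclear calls (0) became 1 with DESeq2 and 1 with transcript length removed, and both nuclear and mt- calls changed with a library left out. For Bcl6 overexpression, the nuclear calls (73) were 67 to 76 and the mt- calls (9) 8 to 11 with a library left out. With gene length removed, mt-Nd1 turned to -0.781, mt-Atp8 to -2.354, mt-Atp6 to -0.817, mt-Nd6 to -2.223 and Cox7a2l to -0.12 on the log2 scale, and with transcript length removed to -0.01, -3.205, -0.634, -2.337 and -0.257, and Cox6b2 to -0.978. The difference in mt- share, in percentage points, was 0.324 (0.309 to 0.34 with a library left out) for Bcl6+ against TIM-3+, -0.178 (-0.193 to -0.162) for Bcl6+ against DN, -0.502 (-0.51 to -0.494) for TIM-3+ against DN, -0.0675 (-0.259 to 0.124) for Prdm1 and 0.202 (-0.0061 to 0.409) for Bcl6 overexpression, the latter pair changing sign without overexpressing replicate 2. With the replicate number as a block, Prdm1 overexpression gave 9 nuclear and 4 mt- calls, and the other counts were 21 and 3, 18 and 2, 18 and 7, and 73 and 9 in the order above. Total counts moved the median of all genes by 0.192 for Bcl6+ against TIM-3+ and -0.177 for TIM-3+ against DN. With 2 libraries per group, a fit without 1 library assumes that the lone library varies like the other groups. Depth limits Cox6a2 and Cox7a1, which had few counts. The mt- genes with near-identical nuclear copies had few counts at the same depth at which other mt- genes had many. In the TILs, mt-Co2 had 39 to 68 counts and mt-Co1 84678 to 117630, and the reason was not tested.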

Other observations

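Genes that copy and read mitochondrial DNA, and regulators of mitochondrial biogenesis, gave a few calls among the TILs, where 19.1% of all genes were higher and 19.6% lower in Bcl6+ than in TIM-3+ cells. Of 23 genes of mitochondrial DNA and RNA tested, 2 were higher in Bcl6+ than in TIM-3+ cells: Polg, the catalytic subunit of the mitochondrial DNA polymerase, at a log2 fold change of 0.80 (SE 0.134, edgeR adjusted p = 3.1e-04), and its accessory subunit Polg2 at 1.01 (SE 0.211, adjusted p = 0.0018). Both were lower in TIM-3+ than in DN cells (-0.59 and -0.88), while Tfb1m, a mitochondrial rRNA methyltransferase, was higher there (1.16, adjusted p = 0.022). Of 14 biogenesis regulators, 4 were higher and 3 lower in Bcl6+ than in TIM-3+ cells. Myc stood at 0.66 (adjusted p = 1.2e-05), the coactivator gene Ppargc1b at 1.12 (adjusted p = 0.0092) and Gabpa at -0.42 (adjusted p = 0.01). Nrf1 was the regulator called lower in Bcl6+ than in DN cells (-0.41, adjusted p = 0.03). Of 77 mitochondrial ribosomal protein genes, 5 were higher and 4 lower in Bcl6+ than in TIM-3+ cells, with Mrpl38 at 0.88 and Mrpl4 at -0.62.

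With Bcl6 overexpression, 5 genes of mitochondrial DNA and RNA were higher and 5 lower of 24 tested (25.4% and 23.4% of all genes), with Hsd17b10 at 1.47 (0.22 with transcript length removed) and Trmt10c at -1.47 (-1.302 with it removed), both parts of mitochondrial RNase P. Of the biogenesis regulators 4 were higher and 3 lower: Gabpa and Gabpb1, the subunits of GABP, were lower at -1.09 and -1.03, and Esrra was higher at 1.46. These values were -0.91, -0.85 and 1.65 with transcript length removed.

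With Prdm1 overexpression edgeR called 0 genes of the 6 further lists. At an unadjusted p of 0.05, 4 of 25 assembly factors were higher, 3 of 14 biogenesis regulators and 2 of 16 carriers and electron-transport genes were lower, and the mitochondrial DNA and RNA genes, the tricarboxylic acid cycle genes and the mitochondrial ribosomal protein genes had 1, 1 and 2 higher and 1, 2 and 2 lower, where 19.2% of all genes passed in 1 direction or the other.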
